A study of Mus musculus with 6 samples.

Results

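Mitochondrial ribosomal proteins are encoded by nuclear genes, made in the cytosol and imported into mitochondria, where they assemble with mitochondrial ribosomal RNA into a large and a small subunit. The finished ribosome translates the few proteins that the mitochondrial genome encodes, all of them subunits of the respiratory chain or of ATP synthase. Some of the proteins have relatives in the bacterial ribosome and others are particular to mitochondria. Developing neurons depend on oxidative phosphorylation, and inherited defects of several of these proteins affect the brain.

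The genes were taken by symbol, as every row named Mrpl or Mrps followed by a number and at most 1 letter. This gave 77 rows of the 45583 in the deposited table, 48 with an Mrpl and 29 with an Mrps symbol. The data were RNA-seq read counts from the fetal cortex of mice of the Cyp19-EGFP strain, which carries a fluorescent reporter of aromatase expression. Dams received 50 µg/kg of bisphenol A (BPA), a building block of polycarbonate plastics and epoxy resins with oestrogenic activity, or peanut oil as vehicle from GD10.5 to GD14.5, and cortex was collected at GD15.5, the age in the labels (another age is named elsewhere in the study). All fetuses were labelled wild type and SRY positive, that is male, and each group held 3 libraries. The labels name fetuses and not dams, so it is not known whether libraries of a group came from separate litters, and p-values measure only the spread between these libraries.

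The libraries held between 3444601 (BPA replicate 3) and 7180835 (vehicle replicate 2) counts, so that 3 counts, taken as the limit that a count of 0 allows, corresponded to between 0.422 and 0.875 CPM, for counting error only. CPM is the count scaled to the same TMM-adjusted library size in every library. All 10 markers of the dorsal pallium were counted in every library, and their summed level was 3547 to 4050 CPM. Ttr, the main transcript of the choroid plexus, stood apart in vehicle replicate 2 (195 CPM) and BPA replicate 2 (308 CPM), against 2.21 to 11.9 CPM in the other 4 libraries. The summed level of the 6 choroid plexus markers was 11 to 222 CPM in vehicle and 14 to 351 CPM in BPA, with Kcnj13 at 0 in 4 libraries. The 9 markers of the ventral telencephalon summed to 911 to 1035 CPM in vehicle and 761 to 872 CPM in BPA. All 9 had a lower estimate in BPA and 5 had an unadjusted p under 0.05 in edgeR, where the background over all genes was 2.20%. This count was 2 without vehicle replicate 1 or BPA replicate 3 and 6 without vehicle replicate 3 or BPA replicate 2. With all libraries, an adjusted p under 0.1 was reached by none of the 9 in edgeR with the filter, by 2 without it and by 1 in DESeq2. With the filter, edgeR gave 1 without vehicle replicate 3, 1 without BPA replicate 2 and 2 without both Ttr-rich libraries. Summed markers of blood were at 279 to 595 CPM in vehicle and 328 to 412 CPM in BPA, those of vessels and meninges at 130 to 182 and 129 to 166 CPM, and those of microglia at 47 to 58.4 and 50.6 to 58 CPM. The part of these tissue differences in the results below was not tested, except where the Ttr-rich libraries were left out.

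The 77 genes lay on 17 chromosomes, with none on X or Y. Chromosome 11 carried the most, 10. Their principal transcripts were short, with a median of 1302 bases against 3255 for the 11913 protein-coding genes tested, while their median GC content was alike (50.4% against 50.5%). A start site on the opposite strand lay within 1000 bases of the start of 33 genes (42.9%), compared with 15.6% of the protein-coding genes tested. Several of these neighbours also serve mitochondria. Mrpl36 started 29 bases from Ndufs6, a complex I subunit, and Mrps12 started 172 bases from Sars2, the mitochondrial seryl-tRNA synthetase. Mrpl46 and Mrps11, which encode proteins of the large and the small subunit, started 412 bases from each other.

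Transcription of nuclear genes for mitochondrial proteins is known to be driven by NRF1, by the ETS factor GABP (also called NRF2) and by YY1. RefSeq promoter windows, from 250 bases before to 50 bases after a start, were matched by symbol for 68 of the 77 genes (74 windows, GRCm38.p6) and searched on both strands for GCGCA and GCGC with any 1 base between them (NRF1), CCGGAAG (ETS/GABP) and AAGATGGC (YY1). The NRF1 letters were found for 19.1% of the 68 genes, compared with 5.19% of all genes with a window and 11.6% of the genes tested. The ETS/GABP letters were found for 36.8%, against 9.93% of all genes and 19.4% of those tested, and the YY1 letters for 17.6%, against 3.19% and 5.29%. At least 1 of the 3 motifs was present for 61.8% of these genes, and for 31.8% of the genes tested. These letters mark matches only, and binding was not measured.

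The promoters of Mrpl33 and Mrpl27, which encode large-subunit proteins with bacterial relatives, are shown because their libraries separated by group in opposite directions (below). That of Mrps27, a pentatricopeptide-repeat protein of the small subunit, is shown for its matches to 2 of the motifs, and that of Mrpl45, a large-subunit protein at the exit of the peptide tunnel, for its repeated NRF1 match. Each runs from 120 bases before the start through the first 30 transcribed bases on the plus strand, with matches in capitals. Mrpl33 lies at chr5:31613831-31613980, Mrpl27 at chr11:94653671-94653820, Mrps27 at chr13:99344666-99344815 and Mrpl45 at chr11:97315596-97315745.
Mrpl33: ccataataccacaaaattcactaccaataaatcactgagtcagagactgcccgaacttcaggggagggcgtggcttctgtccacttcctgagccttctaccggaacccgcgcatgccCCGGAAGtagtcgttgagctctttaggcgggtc
Mrpl27: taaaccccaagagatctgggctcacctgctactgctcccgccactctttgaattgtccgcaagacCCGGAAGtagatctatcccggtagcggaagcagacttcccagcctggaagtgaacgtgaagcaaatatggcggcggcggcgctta
Mrps27: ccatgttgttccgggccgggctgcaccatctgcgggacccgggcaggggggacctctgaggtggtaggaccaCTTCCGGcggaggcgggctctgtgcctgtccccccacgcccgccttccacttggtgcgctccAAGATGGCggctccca
Mrpl45: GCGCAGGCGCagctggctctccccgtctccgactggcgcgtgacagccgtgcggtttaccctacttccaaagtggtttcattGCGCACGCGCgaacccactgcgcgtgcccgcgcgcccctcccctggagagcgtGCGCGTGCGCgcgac

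Mrpl33 and Mrpl27 carried the same ETS/GABP letters on the plus strand, beginning 3 bases and 55 bases before the start. In Mrps27 the ETS/GABP letters were read on the minus strand, and the YY1 match began 14 bases after the first transcribed base. Mrpl45 held 3 matches to the NRF1 motif in these 150 bases.

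Of the 77 genes, 74 passed the filter on low counts and were tested. The 3 others were Mrpl53, with 0 or 1 count in each library, Mrps36, with 0 to 5 counts, and Mrps23, which was listed at 0 in every library. Mrps36 encodes a protein that is now assigned to the 2-oxoglutarate dehydrogenase complex and not to the ribosome. The exons of Mrpl53 overlapped those of Gm42688 on the same strand over 88.0% of their length, and all 50-base words of its principal transcript were also found in that gene model. No row of the deposited counts bore the name Gm42688. Mrps23, a small-subunit protein at chr11:88204388-88211507, shared no 50-base word with another gene model. The 37 rows of mitochondrially encoded genes, the messages and RNAs of the ribosome's own genome, were also listed at 0 in every library.

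Levels of the tested genes are given as CPM per kilobase of principal transcript, over all 6 libraries. They ranged from 2.44 to 102 with a median of 12.3, a span of 41.8-fold whose lower end was Mrpl23, a gene with a near-identical copy (below). The middle 50% of genes lay between 6.42 and 21.2. Mrpl52, specific to the mitochondrial large subunit, was the highest at 102 ± 17.1 CPM per kb (SD, n = 6). Mrpl34 followed at 47.1 CPM per kb, with 28.2, 28.3 and 37.7 CPM in the vehicle and 23.4, 33.6 and 20.4 CPM in the BPA libraries. Next came Mrpl20 at 46.1 ± 4.97, Mrpl28 at 38.7 ± 1.94 and Mrpl37 at 36.4 ± 2.33 CPM per kb. Mrpl34, Mrpl20 and Mrpl28 have bacterial relatives and Mrpl37 does not. Among these 4, Mrpl28 lay below Mrpl20 by more than 2 of its own SDs but within 2 SD of Mrpl20, and Mrpl37 lay within 2 SD of Mrpl28.

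The lowest levels per kilobase were those of Mrpl1 (3.19 ± 0.238), Mrps16 (3.10 ± 0.641), Mrps14 (2.93 ± 1.08), Mrpl48 (2.51 ± 0.362) and Mrpl23 (2.44 ± 1.06 CPM per kb), each SD over 6 libraries. Neighbours among these 5 did not differ by more than 2 SD of either. The place of Mrpl23 depends on how reads were divided between it and its pseudogene. Summed with Mrpl23-ps1, at 8.17 to 10.8 CPM, it would stand in place 34 of 74 per kilobase, above the median. Mrpl48, which shares 6.3% of its 50-base words with Mrpl48-ps, was at 5.94 ± 1.13 CPM per kb summed with that row (SD, n = 6). The order also depends on the transcript chosen. With the length of all annotated exons, Mrpl52 and Mrpl34 remained in the first 2 places in reversed order, while Mrpl37 moved from place 5 to 21 and Mrpl33 from 17 to 72. The 3 relatives of the bacterial S18 protein differed in level. Mrps18a, which is built into the large subunit and is counted here with the proteins specific to it in mitochondria, was at 32.5 ± 2.21 CPM per kb, and Mrps18c and Mrps18b, the small-subunit forms, were at 5.56 ± 1.45 and 4.22 ± 0.578 CPM per kb. Mrps18b shared 30.9% of its 50-base words with Gm13552, a row of 4 to 21 counts against 12 to 33 for the gene. Mrps18c shared 22.4% with Gm43511, a name without a row in the deposited counts, while Mrps18a shared none. By all annotated exons Mrps18a stood in place 39 and not 7.

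**Figure D1:**
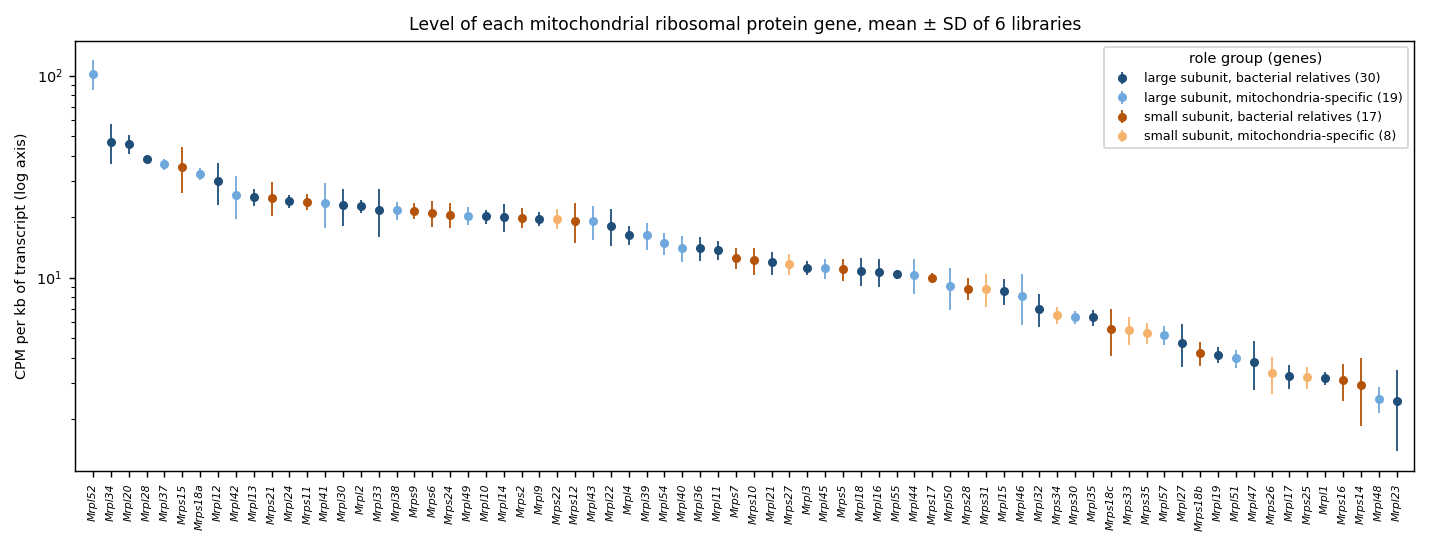
Mean level of the 74 tested mitochondrial ribosomal protein genes in CPM per kilobase of principal transcript on a log axis, ordered from highest to lowest. Points are means and bars SD over 6 libraries, coloured by role, and the range runs from 102 (Mrpl52) to 2.44 (Mrpl23). Small-subunit proteins specific to mitochondria lie at 19.6 (Mrps22) and below.

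The comparison of BPA with vehicle asks whether prenatal exposure changed the transcripts of this machinery in the fetal cortex. None of the 74 genes had an edgeR adjusted p under 0.1, nor did any of the 13741 genes tested (0%), and none of the 74 passed in DESeq2 or limma-voom. At an unadjusted p under 0.05, 2 genes (2.7%) were counted, Mrpl33 and Mrpl23, against 2.20% of all genes, which is near the background. Both were higher in BPA, where the background was 1.02%, and none was lower, where it was 1.18%. DESeq2 counted 1 gene at this level and limma-voom 2. Estimates were higher in BPA for 37 genes and lower for 37. Single libraries turned this balance, with 50 higher and 24 lower without BPA replicate 3 and 26 higher and 48 lower without BPA replicate 2, and it was 28 against 45 with both Ttr-rich libraries left out. The median log2 fold change was -0.0023, against 0.0016 over all genes tested, and the middle 50% of estimates lay between -0.08 and 0.11.

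The precision sets what could be seen. Standard errors of the log2 fold change ranged from 0.112 (Mrpl37) to 0.398 (Mrpl23), with a median of 0.174. The 95% interval lay within a 2-fold change in either direction for 71 of the 74 genes (95.9%) and within a 1.5-fold change for 58 (78.4%), compared with 99.3% and 79.8% of the 4872 genes of like level, whose mean CPM lay in the middle 80% of that of the set. The 74 genes also include levels outside that range. Among them are Mrpl23 and Mrpl27, at means of 1.69 and 3.6 CPM, whose intervals pass 2-fold. The interval of Mrps14 (-1.01 to 0.28) also passes 2-fold, at a mean of 8.79 CPM, which is inside that range. These intervals are per gene and unadjusted, and rest on 3 libraries per group. A difference within them could have gone unseen.

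**Figure D2:**
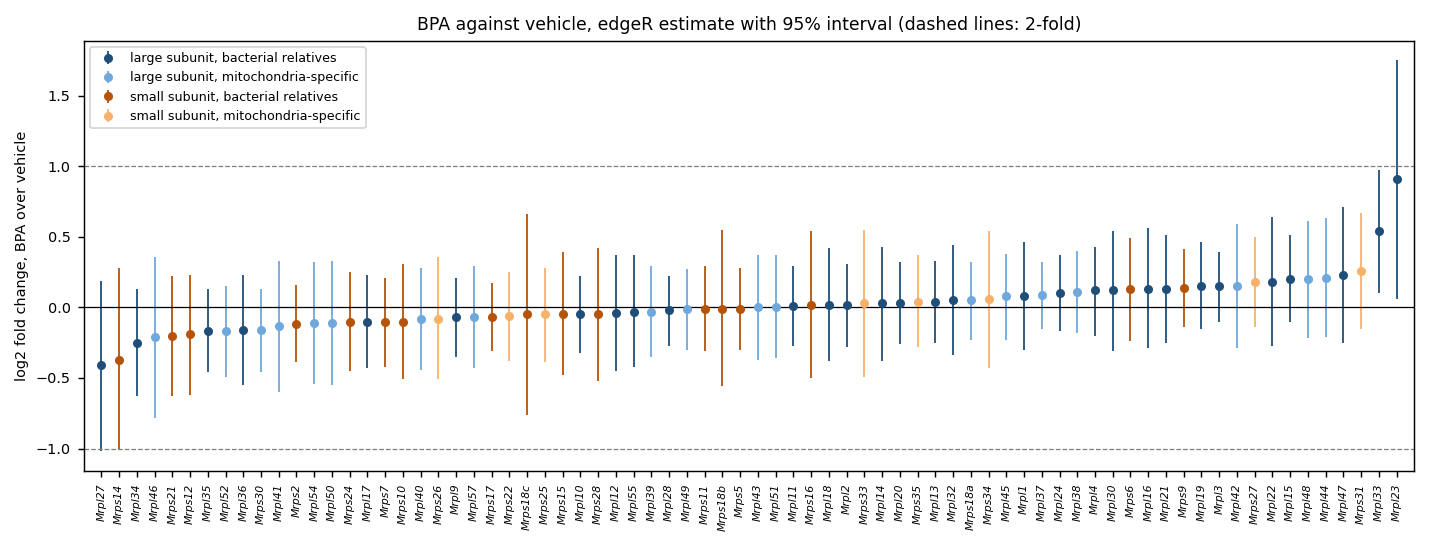
Log2 fold change of BPA over vehicle for the 74 tested genes, ordered from lowest (Mrpl27, -0.41) to highest (Mrpl23, 0.91), with edgeR 95% intervals and colours by role. Only the intervals of Mrpl33 and Mrpl23 exclude 0, and dashed lines mark a 2-fold change.

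Mrpl33, a small protein of the large subunit that faces the tRNA exit site in bacteria, had the smallest p. Its level was 8.82, 7.32 and 8.87 CPM in the vehicle libraries and 12.1, 9.91 and 14.9 CPM in the BPA libraries. Every BPA library lay above every vehicle library, and the means were 8.34 ± 0.883 and 12.3 ± 2.49 CPM (SD, n = 3 each). The log2 fold change was 0.54 with an SE of 0.206 (95% interval 0.10 to 0.97, unadjusted p = 0.0191 and adjusted p = 1, edgeR). Without vehicle replicate 2 the log2 fold change was 0.44 (unadjusted p = 0.065, edgeR) and without BPA replicate 3 it was 0.41 (unadjusted p = 0.0832, edgeR). With the 2 Ttr-rich libraries left out it was 0.59 (unadjusted p = 0.0206, edgeR). Of the 50-base words of its principal transcript, 30.3% were shared with Gm43809, a gene model that overlaps it on the same strand. The deposited counts held no row of that name, so reads from Gm43809 could have been counted as Mrpl33.

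Mrpl23, a protein at the exit of the peptide tunnel, had the largest log2 fold change (0.91, SE 0.398, 95% interval 0.06 to 1.75) on the fewest counts, 5 to 18 per library. It was at 1.62, 0.985 and 0.986 CPM in vehicle and at 2.83, 2.28 and 1.46 CPM in BPA (unadjusted p = 0.0368, adjusted p = 1, edgeR). The unadjusted p was 0.0758 without BPA replicate 2, 0.118 without vehicle replicate 2 and 0.101 without vehicle replicate 3 (edgeR), and 0.137 in DESeq2. The groups overlapped, since the lowest BPA library lay below the highest vehicle library. A processed pseudogene on chromosome 2, Mrpl23-ps1, holds a copy of the message. Over 543 aligned bases, 541 were identical, and all 438 coding bases were the same in both. A read of 50 bases from the coding message therefore has the same bases in both, as the first 60 coding bases show. In the gene they run on the plus strand of chromosome 7 from 142533178 to 142535047 across 2 exons. In the pseudogene they run unbroken on the minus strand of chr2:74591833-74591892. A read across the exon junction matches the gene only when spliced. Start codons are in capitals, and both sequences are from GENCODE M21 transcripts on GRCm38.
Mrpl23: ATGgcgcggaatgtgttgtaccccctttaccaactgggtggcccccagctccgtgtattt
Mrpl23-ps1: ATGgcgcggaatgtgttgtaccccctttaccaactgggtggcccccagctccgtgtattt

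The pseudogene row held 23 to 62 counts per library, more than the gene itself. It was at 9.12, 8.59 and 9.86 CPM in vehicle and at 7.22, 8.45 and 6.71 CPM in BPA, with every BPA library below every vehicle library (log2 fold change -0.28, SE 0.201, unadjusted p = 0.185, edgeR). Summed, gene and pseudogene were at 10.7, 9.57 and 10.8 CPM in vehicle and at 10.1, 10.7 and 8.17 CPM in BPA. The groups overlapped, and the log2 fold change of the sum was -0.08 with an SE of 0.191 (unadjusted p = 0.679, edgeR). The direction for Mrpl23 thus reversed when both rows were summed. How the reads were divided between them is not given in the sources used here.

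Besides Mrpl33, 2 genes had no overlap between groups, Mrpl27 and Mrps30, both lower in BPA. These 3 genes are 4.05% of the set, against 6.75% of all genes tested (3.19% higher and 3.56% lower). Mrpl27, which lies near the peptidyl transferase centre in bacteria, was at 3.97, 3.66 and 4.93 CPM in vehicle and at 3.30, 3.41 and 2.33 CPM in BPA. The difference did not pass the test (log2 fold change -0.41, SE 0.286, unadjusted p = 0.169, edgeR), and 32.4% of its 50-base words were shared with Gm6304, a row of 3 to 16 counts. Mrps30, which is built into the large subunit despite its symbol, was at 21.3, 22.4 and 23.7 CPM in vehicle and at 19.5, 20.6 and 19.8 CPM in BPA. Its libraries were close together within each group, yet the log2 fold change was small (-0.16, SE 0.137, unadjusted p = 0.247, edgeR).

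**Figure D3:**
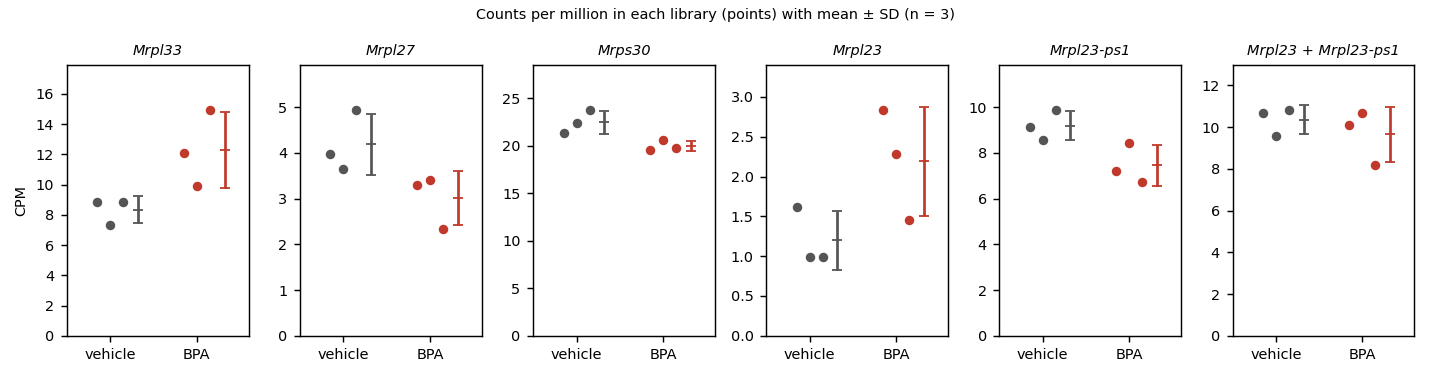
Level in CPM of Mrpl33, Mrpl27, Mrps30, Mrpl23, Mrpl23-ps1 and the sum of the last 2 in each vehicle (grey) and BPA (red) library, with mean ± SD (n = 3) beside the points and every axis starting at 0. Mrpl33 is higher, and Mrpl27, Mrps30 and Mrpl23-ps1 are lower, in all BPA libraries, whereas the sum of Mrpl23 and Mrpl23-ps1 overlaps between 8.17 and 10.8 CPM.

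The other genes among the 12 smallest p-values had estimates between -0.37 and 0.26, and their groups overlapped. Mrps31 (0.26 ± 0.192, SE), Mrpl15 (0.20 ± 0.143), Mrps27 (0.18 ± 0.150) and Mrpl3 (0.15 ± 0.116) had higher log2 estimates in BPA. Mrpl34 (-0.25 ± 0.177), Mrpl35 (-0.17 ± 0.137) and Mrpl52 (-0.17 ± 0.150) had lower ones. None of them reached an unadjusted p of 0.05 in edgeR with all libraries. Over all alternatives Mrps31 lay between 0.12 and 0.44, Mrpl15 between 0.10 and 0.36, Mrps27 between 0.08 and 0.28 and Mrpl3 between 0.11 and 0.21. Mrpl35 lay between -0.25 and -0.09 and Mrpl52 between -0.33 and -0.09. An unadjusted p under 0.05 was reached by Mrps31 without BPA replicate 1, by Mrpl15 without vehicle replicate 2 and by Mrpl52 without vehicle replicate 1.

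Mrps14, a small-subunit protein with a bacterial relative, varied most among the vehicle libraries. It was at 14.3, 5.07 and 10.3 CPM in vehicle and at 6.28, 8.13 and 8.75 CPM in BPA, so all 3 BPA libraries fell inside the vehicle range. Its log2 fold change was -0.37 (SE 0.304, unadjusted p = 0.244, edgeR). Without vehicle replicate 1 it was 0.03 and without vehicle replicate 2 it was -0.71 (unadjusted p = 0.00843, edgeR), so single vehicle libraries set both its size and its direction. Mrpl34 likewise moved from -0.25 to -0.50 without BPA replicate 2 (unadjusted p = 0.0115, edgeR), and to -0.55 with both Ttr-rich libraries left out (unadjusted p = 0.00432, adjusted p = 0.461, edgeR). It moved the other way, to -0.11 without vehicle replicate 3 (unadjusted p = 0.559, edgeR) and to -0.13 without BPA replicate 3 (unadjusted p = 0.478, edgeR).

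By role, no group had a gene past the adjusted threshold. Among the 30 tested proteins of the large subunit with bacterial relatives, 20 had a higher estimate in BPA (median 0.03) and both genes at an unadjusted p under 0.05 belonged here. Of the 19 large-subunit proteins specific to mitochondria, 9 were higher and 10 lower (median -0.01), and 5 were higher without BPA replicate 2. Of the 17 small-subunit proteins with bacterial relatives, 3 were higher and 14 lower (median -0.05), and none had an unadjusted p under 0.05. The number higher was 8 without BPA replicate 3, 7 without vehicle replicate 3 and 5 without vehicle replicate 1 or 2, and it was 6 in limma-voom. Mrps9 (0.14) was among the 3 and Mrps21 (-0.20) among the 14. The 8 small-subunit proteins specific to mitochondria divided into 5 higher and 3 lower (median 0.04), with 8 higher without BPA replicate 3 and 3 without vehicle replicate 1 or without the Ttr-rich libraries. These medians stood beside 0.0016 over all genes, of which 50.5% had a higher estimate. With each library left out in turn, the medians ranged from -0.03 to 0.10, from -0.13 to 0.06, from -0.13 to -0.03 and from -0.07 to 0.07, in the same order.

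The sum over the set did not separate the groups. The summed level of the 77 genes was 1480, 1698 and 1691 CPM in the vehicle libraries and 1572, 1773 and 1503 CPM in the BPA libraries. The highest and the second lowest sums were both BPA libraries, and the means were 1623 ± 124 and 1616 ± 140 CPM (SD, n = 3 each), or 0.162% of counts in both groups. In BPA replicate 2, 61 of the 74 genes lay above their own mean over the 6 libraries, and in vehicle replicate 1, 18 did. The other vehicle libraries had 49 (replicate 2) and 54 (replicate 3), and the other BPA libraries 34 (replicate 1) and 23 (replicate 3). Over all genes tested this share was 50.2% to 52.1% in each library.

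On the log2 CPM scale, the mean deviation of the 74 genes from their own means was -0.108, 0.028 and 0.078 in vehicle and -0.031, 0.138 and -0.104 in BPA. For the 35 tested subunits of complex I, which holds several of the proteins this ribosome makes, it was -0.025, 0.020 and 0.155 in vehicle and -0.060, 0.072 and -0.162 in BPA. For the 64 tested proteins of the cytosolic ribosome it was -0.068, -0.043 and 0.102 in vehicle and 0.005, 0.035 and -0.031 in BPA. All 3 groups of genes were below their means in vehicle replicate 1 and in BPA replicate 3 and above them in vehicle replicate 3 and BPA replicate 2. BPA replicate 2, where the mitochondrial ribosomal genes were highest, was also the library with the most Ttr, and BPA replicate 3 was the library with the fewest counts. Other libraries went differently. Vehicle replicate 2, also rich in Ttr, was at 0.028, below vehicle replicate 3 (0.078, Ttr at 5.72 CPM). Vehicle replicate 1, the lowest at -0.108, held 6870232 counts. The part of Ttr or depth in these levels was not tested.

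**Figure D4:**
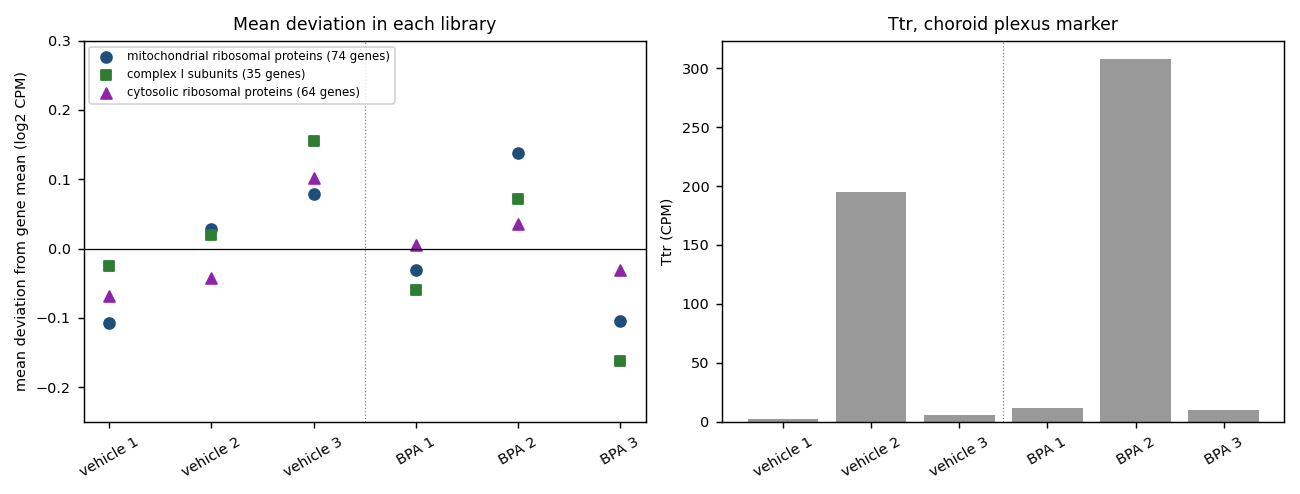
Left, the mean deviation from each gene's own mean (log2 CPM) of mitochondrial ribosomal proteins, complex I subunits and cytosolic ribosomal proteins in each library, with a dotted line between vehicle and BPA. Right, Ttr in CPM in the same libraries, which was 195 and 308 in replicate 2 of each group and at most 11.9 elsewhere.

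Single genes followed the mean of the set only in part, with 61 of 74 above their own mean in BPA replicate 2 and 18 in vehicle replicate 1. The size of their spread is a separate measure. The highest library of a gene exceeded its lowest by a median of 1.44-fold, close to the 1.42-fold of the 4872 genes of like level. Those genes cover only the middle 80% of the levels of the set. The ratio was smallest for Mrpl28 (1.15) and largest for Mrpl23 (2.87). It was at least 2 for 8 genes and under 1.5 for 43 (58.1%, against 62.8% of the genes of like level). These extremes were picked out after the values were seen.

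**Figure D5:**
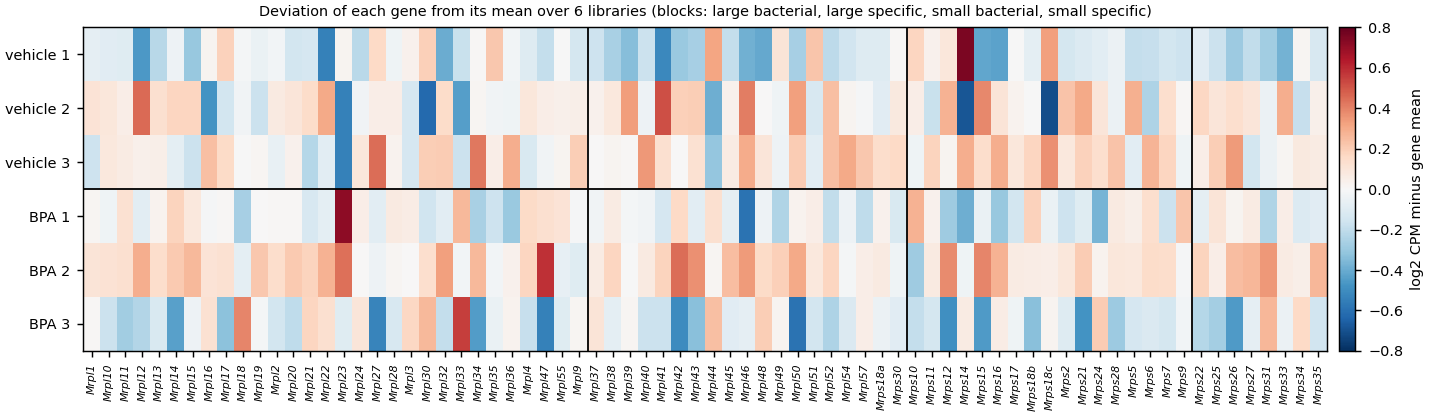
Log2 CPM of the 74 tested genes minus each gene's mean over the 6 libraries, with libraries in rows, genes in columns in 4 blocks by role and colours ending at 0.8 in either direction. Vehicle replicate 1 is mostly blue (18 genes above their mean) and BPA replicate 2 mostly red (61 genes), and no block separates the vehicle from the BPA rows.

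Other genes that build or serve the mitochondrial ribosome had no gene past the adjusted threshold of edgeR either. Over all genes tested, 50.5% had a higher estimate in BPA. Of 6 proteins of the same ribosome under other symbols, 2 had a higher estimate in BPA and 4 a lower one (median -0.02), among them Dap3 (0.07) and Gadd45gip1 (-0.18), and 4 were higher without vehicle replicate 3 or BPA replicate 3 and 1 without vehicle replicate 1 or BPA replicate 2. Of 23 assembly factors, 14 were higher (median 0.09), with Mettl15, an RNA methyltransferase of the small subunit, having the smallest p (0.54, SE 0.289, unadjusted p = 0.0822, edgeR). With a library left out 11 to 16 assembly factors were higher, and without vehicle replicate 1 the division was 11 higher and 12 lower (median -0.02). Of 15 translation factors 13 were higher (median 0.09), including the elongation factors Tsfm (0.36) and Guf1 (0.24), and 9 to 12 were higher with a library left out. Of 20 mitochondrial aminoacyl-tRNA synthetases, which charge the tRNAs that this ribosome uses, 17 were higher (median 0.11) and 13 to 17 with a library left out.

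Yars2, the tyrosyl-tRNA synthetase, was the only gene of these lists with an unadjusted p under 0.05 in edgeR. It was 1 of 20 synthetases, against 2.20% of all genes tested, and no synthetase was counted without BPA replicate 3. Yars2 was at 9.56, 7.74 and 12.4 CPM in vehicle and at 11.8, 14.1 and 17.5 CPM in BPA, and the groups overlapped (log2 fold change 0.54, SE 0.212, unadjusted p = 0.0225, adjusted p = 1, edgeR). Of 9 genes of mitochondrial DNA transcription and maintenance 7 were higher (median 0.11), and of 9 regulators of mitochondrial biogenesis 4 were (median -0.01). Ppargc1a, a coactivator of that programme, was at 15.3, 14.8 and 19.7 CPM in vehicle and 13, 13 and 14 CPM in BPA. Every BPA library lay below every vehicle library, an order held by 3.56% of all genes tested. The test was not passed (log2 fold change -0.31, SE 0.17, unadjusted p = 0.0878, edgeR).

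Complex I had 6 of 35 subunits higher and 29 lower in BPA (median -0.06), 1 of them at an unadjusted p under 0.05 (Ndufa3, -0.38, SE 0.153, unadjusted p = 0.0244, edgeR). Over all genes tested 50.5% were higher, and 2.20% had an unadjusted p under 0.05 in edgeR. With single libraries left out, between 4 (without BPA replicate 2) and 16 (without vehicle replicate 3) of the 35 were higher. The cytosolic ribosomal proteins divided into 29 higher and 35 lower (median -0.01), and the mitochondrial ribosomal proteins into 37 and 37. Among the 64 cytosolic proteins, 1 had an unadjusted p under 0.05 (Rplp2, -0.38, SE 0.152, unadjusted p = 0.0239, edgeR). Among the genes that start on the opposite strand within 1000 bases, Mitd1 (beside Mrpl30) and Zfp661 (beside Mrps5) had an unadjusted p under 0.05 in edgeR. Such starts lay beside 33 members, and the neighbours Lrrc46, Oaz3 and B430218F22Rik among them were not tested. The background was again 2.20% of all genes tested. Mitd1 had a log2 fold change of 0.52 where that of Mrpl30 was 0.12, and Zfp661 one of 0.48 where that of Mrps5 was -0.01. All of these lists share the same 6 libraries, and the differences between them were not tested.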

How the data were processed

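Read counts per gene were deposited by the authors as a table of 45583 gene symbols for 6 libraries. According to the study's methods and the submitters' processing notes, strand-specific single-end libraries were aligned with TopHat2 (2.0.14) to GRCm38 and counted on GENCODE models with featureCounts. Whether strand or multiply aligned reads were used in counting is not given in the sources used here, which matters for genes with close copies. Replicates were numbered in accession order.

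The table was filtered with filterByExpr (minimum count 10, minimum total 15), scaled by TMM and tested with the quasi-likelihood test of edgeR 4.0.16 in R 4.3.3, with Benjamini-Hochberg adjustment over all 13741 genes tested and a threshold of 0.1. The test was checked on simulated data. CPM use TMM-scaled library sizes. DESeq2 1.42.0, limma-voom (limma 3.58.1), other scalings and filters, and leaving out libraries were alternatives. Lengths, positions and 50-base words came from GENCODE M21 and promoters from RefSeq. The genes named were the 12 with the smallest p, the 5 highest and 5 lowest per kilobase, all without overlap between groups, all not tested, Mrps18a, Mrps18b, Mrps18c and the leading genes of each list. Others, such as Mrpl45 and the members with close neighbours, were named for their promoter or position after the values were seen. Members and lists were chosen with earlier results of these data known.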

Additional observations from a re-analysis of the deposited data

How the results depend on the processing

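No member passed an adjusted p of 0.1 under any of the 14 alternatives. The number of members at an unadjusted p under 0.05, 2 as reported, was 1 with a filter of at least 10 CPM in 3 libraries, 1 in DESeq2, 1 with members summed with their named pseudogenes and 4 with the 2 Ttr-rich libraries left out, and ranged from 1 to 4 with single libraries left out. The sum with pseudogenes and the leaving out of both Ttr-rich libraries were chosen after seeing the data. Not all genes counted were higher in BPA. With both Ttr-rich libraries left out, 1 of the 4 was higher. It was 1 of 3 without BPA replicate 2, 1 of 2 without vehicle replicate 2 and 3 of 4 without vehicle replicate 1. Among single libraries left out, the highest count came without vehicle replicate 1 (Mrpl23, Mrpl33, Mrpl44 and Mrpl52), and the lowest without vehicle replicate 3 (Mrpl33). The cause was not tested. The log2 fold change reversed for Mrpl23 when summed with Mrpl23-ps1 (-0.08) and for Mrps14 without vehicle replicate 1 (0.03, with a range of -0.71 to 0.03 over single libraries left out). The other 10 genes with the smallest p kept their direction under every alternative that gave a value, and Mrpl33 lay between 0.41 and 0.67. No paired analysis was possible because replicate numbers were given in accession order and pair no samples. Mrpl23, Mrpl53 and Mrps36 had at most 18 counts in a library, and each shares sequence with another gene model, so the part of depth in their low counts cannot be told apart.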
